A study of Mus musculus with 15 samples.

Results

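Cassette exons of 5 genes of nuclear and cell cycle regulators, Top3b, Cdk2, Cux1, 2210018M11Rik (now named Emsy) and Zfp322a, are described here from mouse forelimb. They account for 8 of the 98 events, and 5 of the 84 genes, in the authors' table of exons that differed between wild-type (WT) forelimbs and forelimbs mutant for the muscleblind gene Mbnl3. The members were chosen by gene symbol from that table, which had itself been selected on the change in exon inclusion between the genotypes. Every inclusion value below is therefore a description and not a test. A cassette exon is an internal exon that a transcript either includes or skips.

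RNA-seq was done on forelimbs of female embryos at day 15 (E15), with 3 replicates of WT and 3 of the Mbnl3 mutant, homozygous for the ΔE2 allele. Mbnl3 HITS-CLIP, in which RNA crosslinked to a protein is precipitated with an antibody and sequenced as tags, was done on BL6 WT and BL6 Mbnl3 ΔE2/ΔE2 forelimbs of the same age and on C2C12 cells. C2C12 is a mouse myoblast line, grown here in DMEM with 20% FBS. Each CLIP group had 3 replicates, of 4 forelimbs from 2 pooled embryos or of 5 plates of cells. The labels name no promoter or Cre for the allele. No marker of muscle or limb can be checked, because the table lists exons and not gene levels. The exon table gives 1 total per genotype without replicates, and a header in it names Mbnl2 for the mutant column, while the table as a whole and the samples are named for Mbnl3. That column is called the mutant column below.

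Muscleblind proteins are zinc finger proteins that bind pre-mRNA and steer alternative splicing. As background, their binding upstream of or within an exon is often linked to skipping, and binding downstream of it to inclusion. The 3 muscleblind genes of the mouse overlap in targets, and Mbnl3 is known for its expression in developing muscle and in myoblasts. The 5 genes act in the nucleus: Top3b is a topoisomerase that also acts on RNA, Cdk2 is the kinase that pairs with cyclins E and A at the start of DNA replication, and Cux1, Emsy and Zfp322a regulate transcription. No exon sequence is printed, since a genome of the files' build (mm9) was not used here.

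Inclusion was higher in the mutant column for Top3b and Cdk2 and lower for Cux1, 2210018M11Rik and Zfp322a. By event, 5 of 8 were higher (all 4 of Top3b and that of Cdk2) and 3 were lower. Of all 98 listed events 54.1% were higher and 45.9% lower. In 7 of the 8 events the change was at least 20 percentage points, against 32.7% of all listed events. Since the table was selected on this contrast, nothing is read from these shares. The smallest change listed for any event was 10.1 points and the largest adjusted p in the authors' deposited table was 0.0498. The median absolute change was 27.4 points over the 8 events, 4 of which are forms of 1 Top3b exon, and 15.5 over the 98. Read from their upstream junctions alone, those 4 forms stayed under 20 points.

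**Figure D1:**
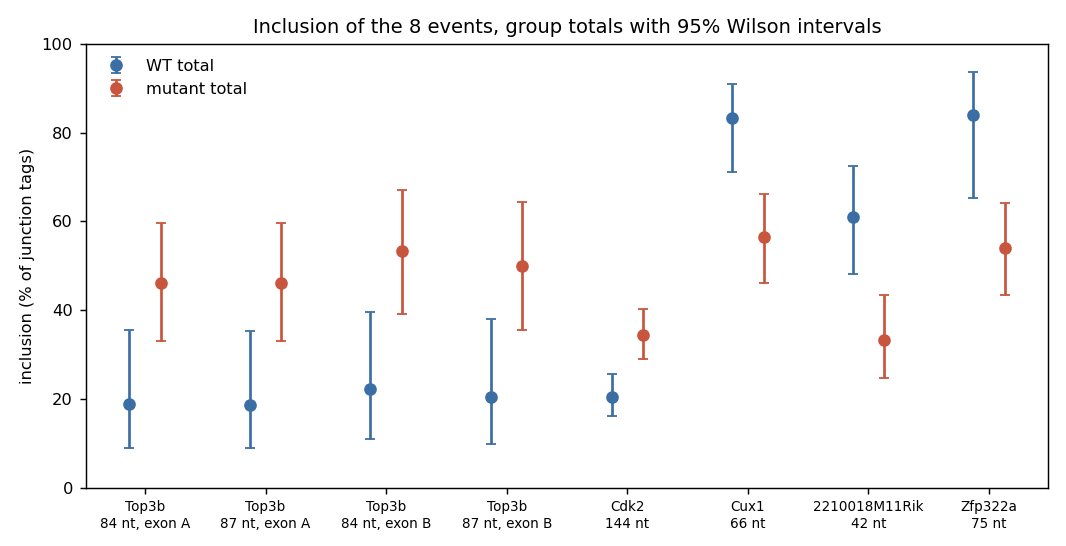
Inclusion in percent (y axis) of the 8 events (x axis, with exon length; exons A and B are the 2 upstream exons of Top3b) in the WT and mutant totals, with 95% Wilson intervals that cover counting error only. The intervals of the 2 genotypes are apart for Cdk2, Cux1, 2210018M11Rik and Zfp322a, and overlap for each Top3b form.

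Inclusion is the mean of the tags on the upstream and downstream inclusion junctions, over that mean plus the tags on the skipping junction. All counts of junction tags are the authors' estimates and need not be whole. Depth was not equal between the genotypes: the median event had 1.66 times as many such tags in the mutant total as in WT. For inclusion tags alone the median ratio was 1.78, and for skipping tags 1.48. Ratios of tags below are set beside these medians.

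Top3b encodes a type IA topoisomerase, which passes strands through a transient break and is known to act on RNA as well as DNA. Its events lie at 16870862 to 16878108 of chromosome 16, plus strand (mm9). They are 4 forms of 1 exon: it is 84 or 87 nt long, since its upstream end shifts by 3 nt, and it is joined to either of 2 upstream exons, called A and B here by their order along the transcript. The most changed form, the 84-nt exon joined to exon B, had 2.75 upstream, 10.8 downstream and 23.6 skipping tags in WT. In the mutant column it had 8.84, 39.9 and 21.3. The downstream tags are those of all 4 forms together and the upstream tags those of this form alone, so the 2 sides are not alike. Skipping tags were 0.902 times WT, against the median of 1.48. The mean inclusion tags were 3.61 times WT, against the median of 1.78, and include the pooled downstream tags.

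This gave an inclusion of 22.2% in WT (95% Wilson interval 11.1 to 39.6) and 53.4% in the mutant (39.2 to 67.0), a difference of 31.1 points (95% Newcombe interval 8.68 to 48.7). In the authors' deposited table its adjusted p was 0.0257, from Fisher's exact test on the group totals. The 87-nt form with exon B went from 20.5% to 49.9%. With exon A, the 84-nt form went from 18.9% to 46.1% and the 87-nt form from 18.7% to 46.1%. The authors' deposited table gave these 3 adjusted p-values of 0.0338, 0.0429 and 0.0427.

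The 4 Top3b forms are not separate observations. They share 1 downstream junction, whose tags enter all 4, and each pair with the same upstream exon shares a skipping junction. The inclusion of each single form therefore counts downstream tags of the other forms too. Summed over the forms with each junction counted once, there were 6.51 upstream, 10.8 downstream and 49.4 skipping tags in WT. The mutant column had 24.8, 39.9 and 48.5. Inclusion then was 14.9% in WT (95% Wilson interval 7.93 to 26.2) and 39.98% in the mutant (29.99 to 50.9), a difference of 25.1 points, with intervals that no longer overlapped. This sum was chosen after the values were seen. The choice between 84 and 87 nt was level, with 60.9% of upstream tags on the shorter form in WT and 62.8% in the mutant, from 6.51 and 24.8 tags.

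The weakest side of Top3b is its upstream junction. For the 87-nt form with exon B it held 1.41 tags in WT and 2.55 in the mutant column, and inclusion read from it alone went from 5.65% to 10.7%, a difference of 5.05 points. With the downstream junction alone the same event differed by 33.9 points. The direction was the same on both sides, and its size for this form rests on the downstream junction.

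Cdk2 encodes the cyclin-dependent kinase of the G1 to S transition. Its 144-nt exon lies on the minus strand of chromosome 10, within 128136528 to 128138499, between introns of 1223 and 300 nt. That length corresponds to 48 codons, and a longer form of the kinase with an insert in its catalytic domain is known in rodents. The table does not say whether this exon is the insert. WT had 58.1 upstream, 53.2 downstream and 217 skipping tags. The mutant column had 95.1, 89.9 and 176. The upstream and downstream sides were close in both genotypes, which was not so for Top3b.

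Inclusion of the Cdk2 exon was 20.4% in WT (95% Wilson interval 16.1 to 25.6) and 34.5% in the mutant (29.04 to 40.3). The difference of 14.05 points (95% Newcombe interval 6.54 to 21.4) was the smallest of the 8 events and ranked 62 of 98 by size. It had the smallest adjusted p of the 5 genes in the authors' deposited table, 0.000131, and the most tags, 273 in WT and 268 in the mutant counting the mean inclusion and skipping tags. The authors' tags of the inclusion isoform, less those on its upstream and downstream junctions, went from 13 to 26. This remainder was taken as tags inside the exon. Total tags at the event were 0.985 times WT, rank 94 of 98 from the highest, so against the median ratio of 1.66 the event had comparatively few tags in the mutant. Inclusion tags were 1.66 times WT and skipping tags 0.811 times, below the median skipping ratio of 1.48.

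Cux1 encodes a homeodomain transcription factor of the CUT family, and the same locus also makes a Golgi protein by alternative splicing. Its 66-nt exon lies on the minus strand of chromosome 5, within 136785617 to 136788877. WT had 44.9 upstream, 45.9 downstream and 9.13 skipping tags. The mutant column had 42.8, 58.8 and 39.2. The inclusion tags were 1.12 times WT, under the median ratio of 1.78 and rank 80 of the 98 events from the highest. The skipping tags were 4.29 times WT, above the median of 1.48 and rank 10. Inclusion was 83.3% in WT (95% Wilson interval 71.2 to 90.9) and 56.5% in the mutant (46.2 to 66.3), a difference of -26.8 points (95% Newcombe interval -39.6 to -11.3). The authors' deposited table gave an adjusted p of 0.0112.

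2210018M11Rik, or Emsy, encodes a repressor of transcription known to bind BRCA2. Its 42-nt exon, the shortest of the set, lies on the minus strand of chromosome 7, within 105790003 to 105795032, before an intron of 3498 nt. WT had 36.96 upstream, 33.96 downstream and 22.8 skipping tags. The mutant column had 26.7, 36.7 and 63.3. It was the only one of the 5 genes with fewer inclusion tags in the mutant, 0.895 times WT against the median of 1.78. Its skipping tags were 2.78 times WT, against the median of 1.48. Inclusion was 60.9% in WT (95% Wilson interval 48.1 to 72.4) and 33.4% in the mutant (24.7 to 43.4), a difference of -27.5 points (95% Newcombe interval -41.9 to -11.3), with an adjusted p of 0.00699 in the authors' deposited table.

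Zfp322a encodes a C2H2 zinc finger protein known from embryonic stem cells. Its 75-nt exon lies on the minus strand of chromosome 13, within 23444973 to 23454716, after an intron of only 148 nt and before one of 4866 nt. WT had 26.01 upstream, 16.01 downstream and 3.99 skipping tags. The mutant column had 52.9, 38.9 and 39.1. Skipping tags were 9.80 times WT, rank 6 of 98, but from a WT count of 3.99. All tags at the event were 3.40 times WT, rank 4 of 98, against the median ratio of 1.66. Inclusion was 84.0% in WT (95% Wilson interval 65.4 to 93.6) and 54.0% in the mutant (43.5 to 64.2), a difference of -30.02 points (95% Newcombe interval -44.3 to -8.77). The WT value rests on 25 tags, the fewest of the 5 genes, and the authors' deposited table gave an adjusted p of 0.0470.

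**Figure D2:**
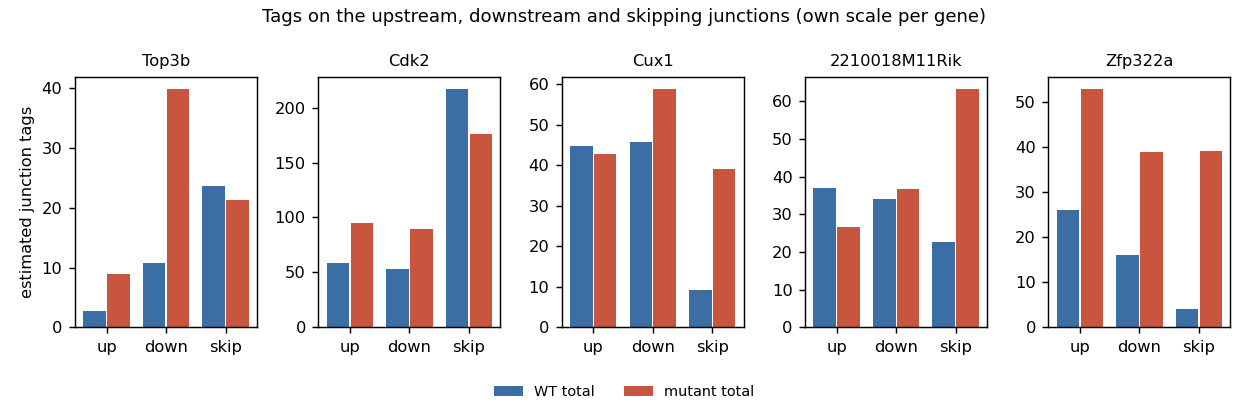
Estimated tags (y axis, own scale per gene) on the upstream inclusion junction, the downstream inclusion junction and the skipping junction in the WT and mutant totals, for the most changed event of each gene. Skipping tags were lower in the mutant total for Top3b (23.6 to 21.3) and Cdk2 (217 to 176) and higher for Cux1 (9.13 to 39.2), 2210018M11Rik (22.8 to 63.3) and Zfp322a (3.99 to 39.1).

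The 3 genes with lower inclusion and the 2 with higher inclusion lay on opposite sides of the median ratio of skipping tags. For Cux1, 2210018M11Rik and Zfp322a the skipping tags were 2.78 to 9.80 times WT, above the median of 1.48 for all events, and ranked 6 to 17 of 98. Inclusion tags of Cux1 and 2210018M11Rik were 1.12 and 0.895 times WT, under the median of 1.78, at ranks 80 and 88. Those of Zfp322a were 2.19 times WT, above it, at rank 32. For Top3b and Cdk2 the skipping tags were between 0.811 and 1.06 times WT, below that median. Inclusion tags ranked 7 to 13 of 98 for the Top3b forms. For Cdk2 they were 1.66 times WT, rank 53, near the median of 1.78. Cdk2 thus departed from the medians mainly in its skipping tags. These are ratios of the contrast that chose the events and carry no test.

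All 8 exons have a length that is a multiple of 3, which would keep the reading frame where the exon is coding. Of the 98 listed exons 60.2% have such a length, and of the 90 others 56.7%. The table does not say whether an exon is coding, and the 4 Top3b forms count 1 exon several times. The members' exons, from 42 to 144 nt, lie on both sides of the median of 80.5 nt for all listed exons.

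**Figure D3:**
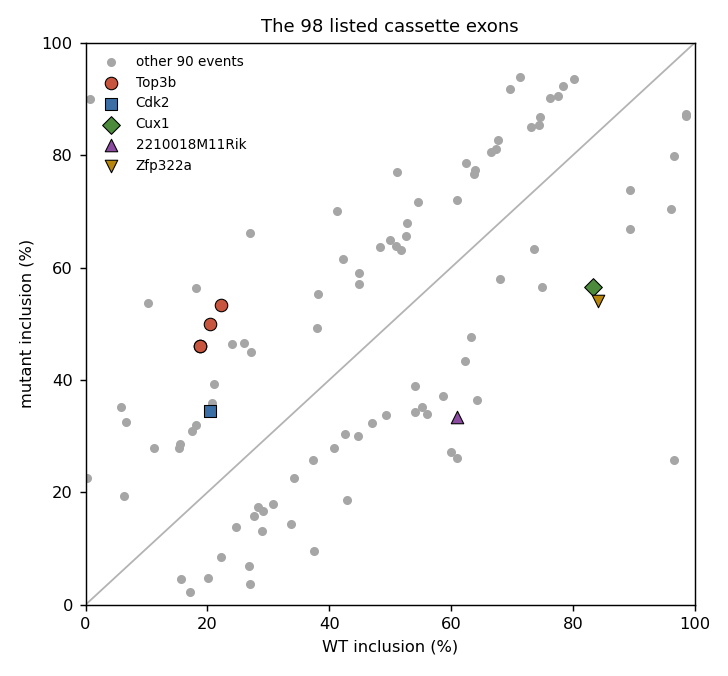
Inclusion in WT (x axis, percent) against the mutant total (y axis, percent) for the 98 listed exons, with the 5 genes marked and the line of equal inclusion. Top3b and Cdk2 start near 20% and lie above the line, while Cux1, 2210018M11Rik and Zfp322a start between 60.9% and 84.0% and lie below it.

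The events nearest to the members in this plane, by straight-line distance over the 2 group totals, belonged to other kinds of genes. The exon nearest to that of Cdk2 was in Itch, a ubiquitin ligase, at a distance of 1.55 points (20.8% and 36.0%). That nearest to 2210018M11Rik was in Vkorc1l1, a vitamin K epoxide reductase, at 4.30 points. Top3b was nearest to Slc9a5 at 5.01 points. Cux1 and Zfp322a were both nearest to Arhgef12 among the other genes, at 8.42 and 9.53 points.

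Other nuclear regulators of the table were taken from lists of cell cycle, DNA topology and repair, transcription factor, chromatin and zinc finger genes. The cell cycle list held 75 genes and the DNA topology and repair list 55 entries, and of their entries the table held only Cdk2, Top3b and 2210018M11Rik. The lists are not complete: outside them the table also holds Rad18, a ubiquitin ligase of DNA repair (21.1% in WT and 39.2% in the mutant), and Rcc1, a regulator of chromosome condensation (15.6% and 28.6%), both picked after their values were seen. The other 3 lists added 7 genes with 8 events, 2 higher and 6 lower in the mutant column. The largest was a 42-nt exon of Creb1, the cyclic AMP response factor, at 26.8% in WT and 6.91% in the mutant. An 84-nt exon of Lef1, a Wnt pathway factor, went from 62.2% to 43.3%. Atf2 went from 74.6% to 86.8%, Bptf, a chromatin remodelling subunit, from 51.8% to 63.1%, and Max, the Myc partner, from 28.3% to 17.5%. Zfp68 had a pair of overlapping events, from 37.4% to 25.7% and from 34.2% to 22.5%. None of these 8 changes reached 20 points, but chromatin genes outside the lists did: Atrx, a chromatin remodeller, went from 89.4% to 66.9%, and Ss18, a subunit of a remodelling complex, from 56.1% to 33.9%. Atrx and Ss18 were also picked after their values were seen. A change of 20 points is therefore not particular to Top3b, Cux1, 2210018M11Rik and Zfp322a.

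CLIP tags were then counted in the spans of the same events, which the choice of members did not use. A span runs from the start of the upstream to the end of the downstream exon, and overlapping spans on 1 strand were merged, giving 85 loci for the table and 1 for each of the 5 genes. The forelimb libraries held 35413 to 124309 tags and the C2C12 set 550124 distinct tags. Of the molecules of ΔE2 replicates 2 and 3, 33916 had the same position, strand and barcode in both, 83.7% and 57.4% of the tags of each. The pair was counted as 1 library of 65730 tags, so that 3 WT libraries stand against 2. Libraries of different genotype shared molecules too, up to 30.1% of ΔE2 replicate 1 with WT replicate 3. So did the WT libraries: 29.8% of WT replicate 1 was also in WT replicate 2, and 31.3% in WT replicate 3. Of WT replicate 2, 32.4% was also in WT replicate 3. The SDs and permutation tests below treat the 5 libraries as separate.

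The 5 loci held few tags: 25 in all forelimb libraries, of which 17 were WT and 8 ΔE2, and 30 in the C2C12 set. WT replicate 1, the shallowest library, had 0 tags at all 5 loci. At its depth 0 tags allow up to 84.7 RPM, tags per 1000000 tags of the library (3 counts, counting error only), which is more than any library showed at these loci. By locus, WT replicates 2 and 3 had 1 and 3 tags at Top3b, 1 and 0 at Cdk2, 1 each at Cux1, 3 and 2 at 2210018M11Rik, and 1 and 4 at Zfp322a. ΔE2 replicate 1 had 2, 1, 0, 1 and 1 tags in the same order, and the merged library of ΔE2 replicates 2 and 3 had 0, 0, 0, 1 and 2.

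**Figure D4:**
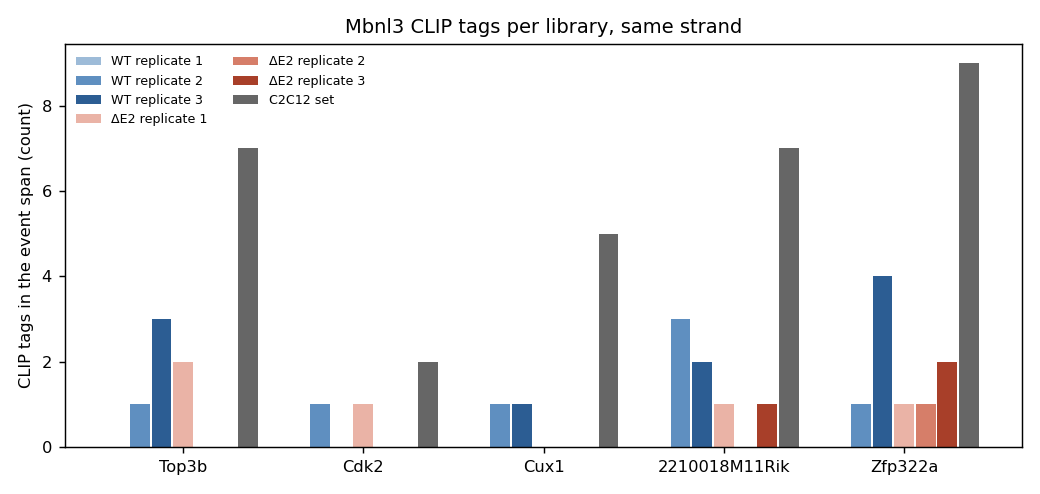
Number of CLIP tags on the gene's strand in each event span (y axis, count) for the 6 forelimb libraries as labelled and the C2C12 set, by gene (x axis). WT replicate 1 has no bar, and no forelimb library exceeds 4 tags.

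No difference in tags between the genotypes was detectable at this depth. For Top3b the 3 WT libraries averaged 12.5 ± 12.1 RPM (SD, n = 3) and the ΔE2 libraries 14.9 ± 21.02 (SD, n = 2), with a two-sided exact permutation p of 1. Cdk2 had 4.50 ± 7.79 and 7.43 ± 10.5, with an exact permutation p of 0.7. Cux1 had 7.18 ± 6.79 in WT and 0 in both ΔE2 libraries, with an exact permutation p of 0.4. Its tags in WT replicates 2 and 3 were the same molecule. 2210018M11Rik had 18.9 ± 20.4 and 15.0 ± 0.248, with an exact permutation p of 0.8. Zfp322a had 15.2 ± 16.2 and 22.6 ± 11.01, with an exact permutation p of 0.6. Adjusted over the 5 loci every p was 1, and with 3 libraries against 2 the smallest p possible is 0.1.

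The groups overlapped at each of the 5 loci, while at 16.5% of the 85 loci they did not. In edgeR's quasi-likelihood test over the loci with at least 10 tags, 0 of 20 were called (0%), with 2 at an unadjusted p under 0.05, and DESeq2 also called 0, with 0 at an unadjusted p under 0.05. None of the 5 loci reached 10 tags. The median over the 85 loci was 3 forelimb tags. Fewer transcripts and less binding cannot be told apart from tags alone, since the table gives no gene levels.

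Per length of span the 5 loci were within the range of the other loci. In WT forelimb, 2210018M11Rik had 3.75 ± 4.05 RPM per kb (SD, n = 3), rank 18 of 85. Cdk2 followed with 2.28 ± 3.95, Cux1 with 2.20 ± 2.08, Top3b with 1.73 ± 1.67 and Zfp322a with 1.56 ± 1.66, ranks 29 to 37. The SD of each value is close to its size or larger, so the order among the 5 genes is not resolved. Single libraries carried these values: without WT replicate 2, Cdk2 had 0 and 2210018M11Rik 1.60 RPM per kb, and Cux1 had 1.23. Without WT replicate 3, Zfp322a had 0.692 and Top3b 0.931. The median locus had 0.868. In the C2C12 set Cux1 had 2.79 RPM per kb, 2210018M11Rik 2.53, Cdk2 1.84, Top3b 1.76 and Zfp322a 1.68, against a median of 1.65. Those rest on 5, 7, 2, 7 and 9 tags. For Cux1, 9.09 RPM had an exact 95% Poisson interval of 2.95 to 21.2.

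The forelimb tags came from 19 distinct molecules, of which 14 were in 1 library and 5 in several. Of the 19, 8 had no more than 1 read in any library. The molecule seen most often was in 2210018M11Rik, from 105792605 to 105792630 on the minus strand. It had 1270 reads in WT replicate 3, 4 in ΔE2 replicate 1, and 1 each in WT replicate 2 and ΔE2 replicate 3, with the same 5-base barcode. It made up both ΔE2 tags of that locus. Were it counted only in WT replicate 3, where its reads were most, ΔE2 would have 0 tags at the locus. None of the 19 molecules was in the C2C12 set.

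Where in the event a tag lay can be told only in part, because the table gives the distances between splice sites but not the length of each flanking exon. For Cdk2 the exon begins between 1224 and 1527 nt after the start of the span. In that stretch lay 3 of its 4 molecules, 1 of WT replicate 2 with 92 reads and 2 of C2C12, within 1356 to 1527 nt. They may lie in the exon or in the intron on either side of it. The other molecule, of ΔE2 replicate 1, was near the upstream exon.

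In 2210018M11Rik, 1 WT molecule of 27 nt overlapped 2 C2C12 molecules between 105793500 and 105793532, a width of 33 nt. The start of the WT molecule lay from 26 nt before to 222 nt after the end of the exon, depending on the length of the upstream exon. A further 5 molecules of this gene were certain to lie in the downstream intron. Of the 12 Top3b molecules, 7 were certain to lie in the upstream intron, 2 from WT forelimb and 5 from C2C12, and 1 of C2C12 in the downstream intron. The 1 Top3b molecule that could touch the exon was a single read of ΔE2 replicate 1. None of the 6 Cux1 molecules could touch the exon: 1 of WT replicates 2 and 3, with 61 reads in the latter, lay at 136785619 to 136785643 near the end of the span, where a C2C12 molecule overlapped it. The Zfp322a exon can begin anywhere over 4653 nt, so 3 of its 16 molecules could touch the exon and none could be assigned to 1 exon or intron. Of those 3, the forelimb molecule came from ΔE2 replicates 2 and 3, with 3 and 7 reads.

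**Figure D5:**
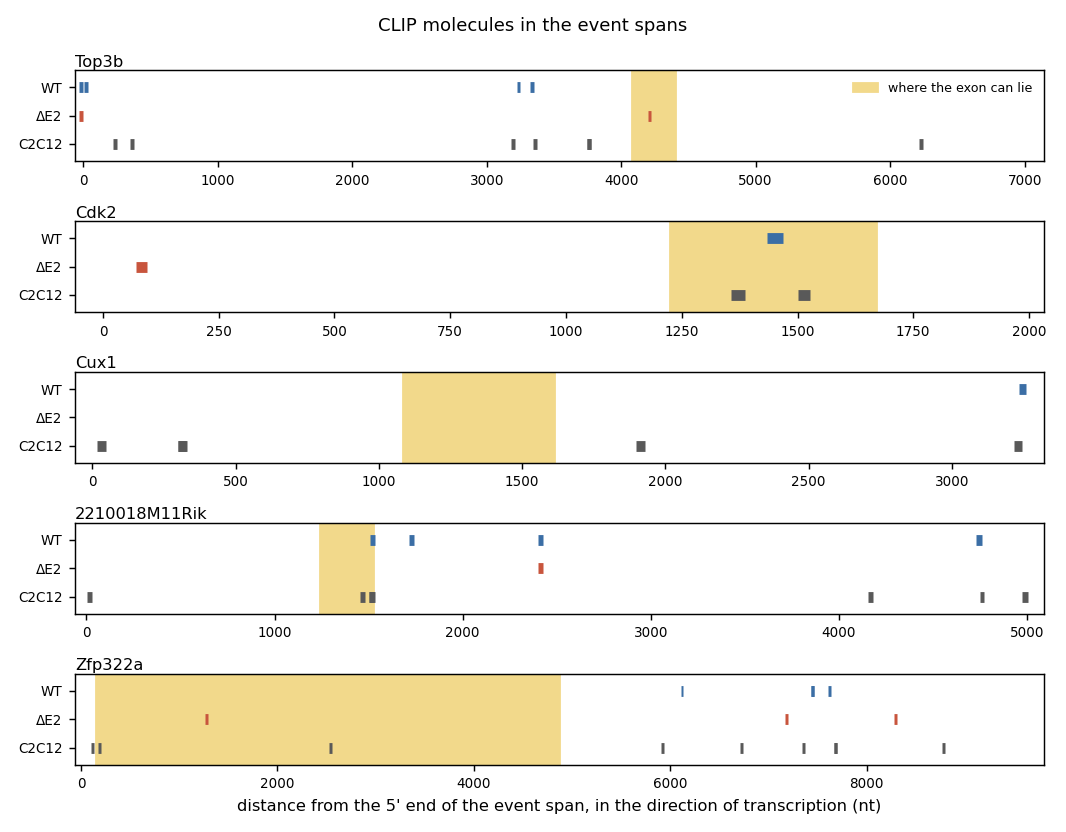
Position of each CLIP molecule (bars, to scale) along the span of the most changed event of each gene, in nt from its 5′ end in the direction of transcription, in rows for WT, ΔE2 and C2C12. The shaded stretch is where the exon can lie: it holds molecules of WT and C2C12 for Cdk2 and 2210018M11Rik and none for Cux1.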

How the data were processed

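Per the submitters' processing notes, the build was mm9 and the tools were TopHat 1.3.2, Bowtie and Novoalign. Per the file headers, the authors deposited a table of cassette exons with estimated counts of tags per isoform and junction (1 total per group), an odds ratio, and a Fisher p-value with its adjusted p-value. The sources used here do not say how tags were shared between isoforms. Values within 0.0005 of the authors' change in inclusion were recomputed for 98 of 98 events. The deposited CLIP files hold 1 tag per line with a 5-base barcode. Their score per tag was deposited without a stated meaning and was not used.

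The members and gene lists were chosen with earlier results of these data known. The text describes every event of the 5 genes, the other listed nuclear genes by largest change, and the nearest other event. Exon and intron lengths come from the event names, whose offsets run in the direction of transcription; where events of 1 gene differed only upstream, the second junction was equal in 7 of 7 pairs on the plus strand and 3 of 3 on the minus strand. Gene IDs of 5 of 5 genes matched RefSeq (GRCm38.p6, names only). Intervals are Wilson intervals of the mean inclusion tags, at 95%, and cover counting error only. Tags overlapping a locus by at least 1 nt on its strand were counted, with repeated C2C12 molecules counted once.

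edgeR 4.0.16 (R 4.3.3) tested the loci with at least 10 tags, with all tags of a library as its size and Benjamini-Hochberg adjusted p at or under 0.05. DESeq2 1.42.0 was an alternative. The procedure was tested on simulated counts. Loci under 10 tags had a two-sided exact permutation test. The labels call the replicates biological. The p-values measure the spread between these libraries, which share molecules, and not the spread between independent animals. Python 3.11.15, numpy 2.4.6, scipy 1.17.1, pandas 2.3.3 and matplotlib 3.10.9 did the rest.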

Additional observations from a re-analysis of the deposited data

How the results depend on the processing

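Of 24 planned readings of the inclusion changes, all kept their direction and 23 stayed within the interval of the difference. The exception was the 87-nt Top3b form with exon B, which differed by 5.05 points from the upstream junction alone. Over all readings, changes ran from 5.05 to 33.9 points for Top3b, 13.96 to 18.1 for Cdk2, -30.8 to -18.5 for Cux1, -32.2 to -23.1 for 2210018M11Rik and -30.2 to -20.6 for Zfp322a. Summing the Top3b forms, an alternative added after seeing the data, gave 25.1 points.

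The sign of the CLIP differences was not stable, with 8 of 50 alternatives reversed. The exact permutation p ran from 0.333 to 1 over the 45 alternatives in RPM, and edgeR's adjusted p from 0.791 to 0.960 over the 5 fits without the filter. Leaving out a WT library left 2 against 2, where 0.333 is the smallest exact permutation p possible. That limit was reached for Cux1 and 2210018M11Rik without WT replicate 1, and for Zfp322a without WT replicate 3. In RPM, ΔE2 minus WT, Top3b went from 2.32 to -2.63 with the 6 libraries as labelled and to -4.77 with shared molecules given to 1 library. Without WT replicate 1 it was -3.95, and without ΔE2 replicate 1 it was -12.5. Its fitted log2 fold without the filter was -0.17. Cdk2 went from 2.93 to -4.50 without ΔE2 replicate 1, 2210018M11Rik from -3.82 to 6.99 without WT replicate 2, and Zfp322a from 7.42 to -0.189 without WT replicate 1. With shared molecules given to the library with most reads, Cdk2 was 4.70, Cux1 -3.16, 2210018M11Rik -18.1 and Zfp322a 11.4. Leaving out each library in turn gave -12.5 to 8.12 for Top3b, -4.50 to 7.43 for Cdk2, -13.2 to 6.99 for 2210018M11Rik and -0.189 to 15.9 for Zfp322a. The cause was not tested. The 25 alternative WT values of RPM per kb moved by less than 1 SD, but each SD is close to its value or larger: leaving out 1 WT library gave 0.931 to 2.596 for Top3b, 0 to 3.42 for Cdk2, 1.23 to 3.30 for Cux1, 1.60 to 5.62 for 2210018M11Rik and 0.692 to 2.34 for Zfp322a.

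The count of loci called was 0 in 13 of 14 alternatives, and 1 (Fgfr2, higher in ΔE2) with the 6 libraries as labelled and the replicate block. The labels do not say whether same-numbered libraries of the genotypes share a litter or day, and this was not tested. Their deviations correlated at -0.159, -0.198 and -0.0978 over 22 loci. Counts in introns alone were not run, because flanking exon lengths are not given. Depth limits the CLIP values, and the RNA-seq totals have no replicates.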
